A study of Mus musculus with 4 samples.

Results

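CHD4 is the chromatin-remodelling ATPase of the nucleosome remodelling and deacetylase complex, and a map of its binding in mouse spermatogonial cells named 52 genes for membrane transporters, ion channels and ATPases. These genes were taken from the list of CHD4 binding intervals by name. A gene was kept where its symbol began with Slc and a digit, or where its full name held "solute carrier", "channel", "ATPase" or "ATP-binding cassette". This gave 61 summits in 57 intervals, out of 2066 summits in 1849 intervals and 1517 genes in all. The rule used names alone and no measured value, though earlier results of these data were known when it was set. Among the 52 genes, 25 had an Slc symbol and the other 27 were found by their full name. The words also caught genes that are neither pumps nor pores, among them Psmc1, an ATPase subunit of the proteasome, Atad2, a chromatin-bound ATPase with a bromodomain, Kctd10, a ubiquitin ligase adaptor that shares a domain with potassium channels, Nkain2, a partner of the sodium pump, and Slc7a6os, which lies on the strand opposite Slc7a6.

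The samples were cells labelled spermatogonial from the testes of wild-type C57BL/6 mice, which were digested to single cells. CUT&Tag was run on 2 biological replicates with an antibody against CHD4 (Abcam ab70469) and 2 with a rabbit anti-mouse IgG as control (Abcam ab6728). In CUT&Tag an antibody brings a transposase to the bound protein, and the DNA it cuts nearby is sequenced. The sources used here do not state the age of the animals or how spermatogonia were enriched. A peak list holds no expression, so the cell type label could not be checked against markers. The deposited list is 1 call of CHD4 against IgG with no value for any single sample, so no error between replicates can be given and no test over samples was possible. The total depth of each sample is not known from the list. The folds and p-values imply a ratio of CHD4 to IgG fragments of 2.33. Ranges in parentheses beside a share, a median or a fragment number are exact 95% intervals, which cover counting error only.

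Solute carriers are membrane proteins that move sugars, amino acids, nucleotides, metals and other small molecules along or against a gradient without splitting ATP themselves. ATP-binding cassette proteins and the P-type and vacuolar ATPases use ATP to move lipids, drugs, ions or protons, while channels let ions pass down their gradient. In the testis, transport across Sertoli cells feeds lactate, amino acids and metals to germ cells, and sperm depend on a set of channels and exchangers for their motility.

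RefSeq promoter windows of the build GRCm38.p6, from 250 bases before to 50 bases after an annotated start, were found for 38 of the 52 genes and for 13 of the 15 whose interval lay within 1 kb of a start. An interval covered some part of its own gene's window at 6 of the 52 genes, beside 318 of the 1517 in the list. Both totals include genes without a window, whose number was not counted for the list, so these counts cannot be compared as shares. The part of the covered stretch upstream of the start is shown for the 3 at which it lay before both the RefSeq start and the authors' start, since these letters lay under the CHD4 signal and outside the transcript. Capitals mark a GC box (GGGCGG) or a CCAAT box (CCAAT, or ATTGG on the other strand), and each run reads 5′ to 3′ on the gene's strand. The first 2 are Abcb6, whose interval crossed the start, and Slc1a4. The third is Slc25a28, the carrier known as mitoferrin 2.
Abcb6, minus strand, chr1:75180393-75180453: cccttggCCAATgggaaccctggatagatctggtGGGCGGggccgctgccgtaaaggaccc
Slc1a4, minus strand, chr11:20332910-20332963: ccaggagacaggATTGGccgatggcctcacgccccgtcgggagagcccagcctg
Slc25a28, minus strand, chr19:43675016-43675131: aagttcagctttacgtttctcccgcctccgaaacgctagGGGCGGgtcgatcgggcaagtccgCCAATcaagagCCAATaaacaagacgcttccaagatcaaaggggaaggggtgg

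These stretches ran from −61 to −1, from −250 to −197 and from −250 to −135 relative to the RefSeq start of each window. The Slc25a28 interval lay 0.01 kb from the RefSeq gene body, which reaches beyond that start. All the stretches shown held a CCAAT box, and those of Abcb6 and Slc25a28 also held a GC box. The upstream stretches at Slc35b1, Slc35f5 and Tmc6, not shown, held no CCAAT box, and only that of Slc35f5 held a GC box. Over the 6 whole windows, 5 held a GC box and 3 a CCAAT box. Of the 349 windows in the table that lay under an interval named for their own gene, 71.9% held a GC box and 43.6% a CCAAT box, against 35.7% and 37.4% of all 32851 windows. The median number of CpG pairs was 19.5 in the 6 windows, 21 in the 349 and 7 in all. An E-box (CACGTG) was in the Tmc6 window and a TATA box (TATAAA) in that of Abcb6, against 7.15% and 13.6% of all windows. None of the 6 held an AP-1 motif (TGACTCA or TGAGTCA), a CRE (TGACGTCA) or GATAAG, which 5.2%, 1.79% and 7.44% of all windows held. Both strands were searched, and none of these motifs holds another. A match of this kind describes letters and is no evidence of a bound factor.

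The genes were spread over many families, and the share of genes named lay near that of all genes. By symbol, 51 of 742 protein-coding genes of these families had an interval, or 6.87% (5.16 to 8.94), beside 6.1% of all 21779 protein-coding genes. With an interval within 1 kb of a transcript start there were 15 of 742, or 2.02% (1.14 to 3.31), beside 2.57% of all. Both shares lie near the background, so neither is a result about transporters. Of the 51 genes, 45 are among the 52 above. The other 6, whose names escape the wording of the rule, were Itpr1, Abcg1, Lrrc8c, Lrrc8d, Best3 and Atp5d.

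**Figure D1:**
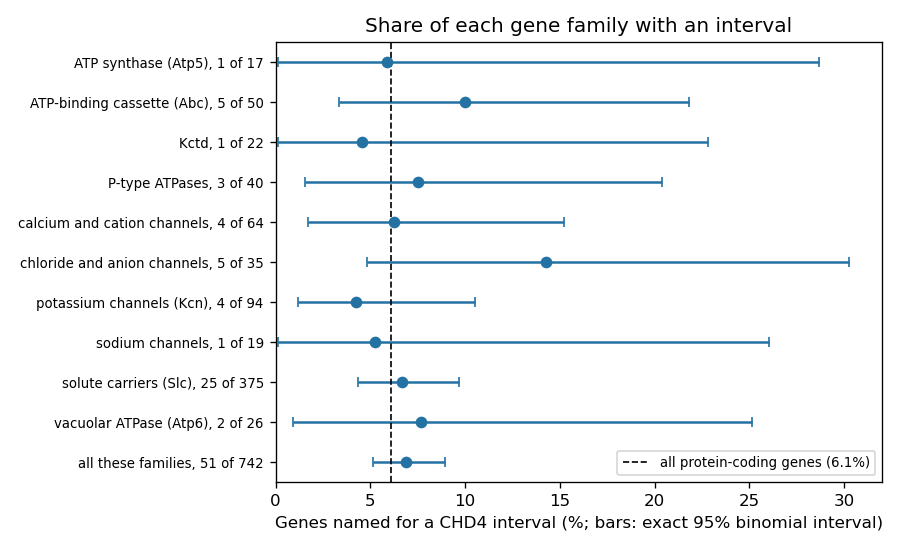
Share of the protein-coding genes of each family, by symbol, that were named for a CHD4 interval (points, in percent, with exact 95% binomial intervals as bars). The dashed line at 6.1% is the share of all protein-coding genes, and it lies inside the bar of every family drawn.

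Solute carriers made up 29 of the 57 intervals, at 25 of the 375 Slc genes in the gene table (6.67%, 4.36 to 9.68). They came from 19 of 51 Slc families. These counts are by symbol and include Slc7a6os, which is no carrier and was the only gene named in family 7. The nucleotide sugar transporter family Slc35 and the mitochondrial carrier family Slc25 had 4 genes each, of 27 and 47 in the table, and every other Slc family had 1. Chloride and anion channels were named at 5 of 35 genes (14.3%, 4.81 to 30.3), ATP-binding cassette genes at 5 of 50 (10%, 3.33 to 21.8), P-type ATPases at 3 of 40 (7.5%, 1.57 to 20.4) and the vacuolar ATPase genes at 2 of 26. Potassium channel genes were named at 4 of 94 (4.26%, 1.17 to 10.5). Calcium and cation channels were named at 4 of 64, and sodium channels, Kctd genes and ATP synthase genes at 1 each. The family counts include the 6 genes outside the 52, among them Lrrc8c, Lrrc8d and Best3 in the anion channels and Abcg1 in the ATP-binding cassette genes.

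The fold of CHD4 over IgG at the summit, the authors' own value, had a median of 4.54 in the 57 intervals (4.31 to 4.91), with a range from 2.61 to 9.03. Over all 1849 intervals the median was 4.76 (4.67 to 4.8). At or above the median of the list lay 22 of the 57 (38.6%, 26 to 52.4), beside 930 of all. Among the top 184 by fold were 7 of the 57. The number of fragments behind these folds was recovered from the deposited fold and −log10 p. It had a median of 27 CHD4 fragments, ranging from 14 to 114, the latter at Slc35f5, and all 1849 intervals had the same median of 27. Fragments are given below over an IgG expectation, and the pair is on different depths: the fragments are unscaled, and the expectation is at the lower IgG depth. The fold is the fragments times 0.429 plus 1, divided by the expectation plus 1, so the plain quotient of a pair overstates the enrichment. Fewer than 20 fragments supported 11 of the 57 (19.3%, 10 to 31.9) and 25.6% of all.

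**Figure D2:**
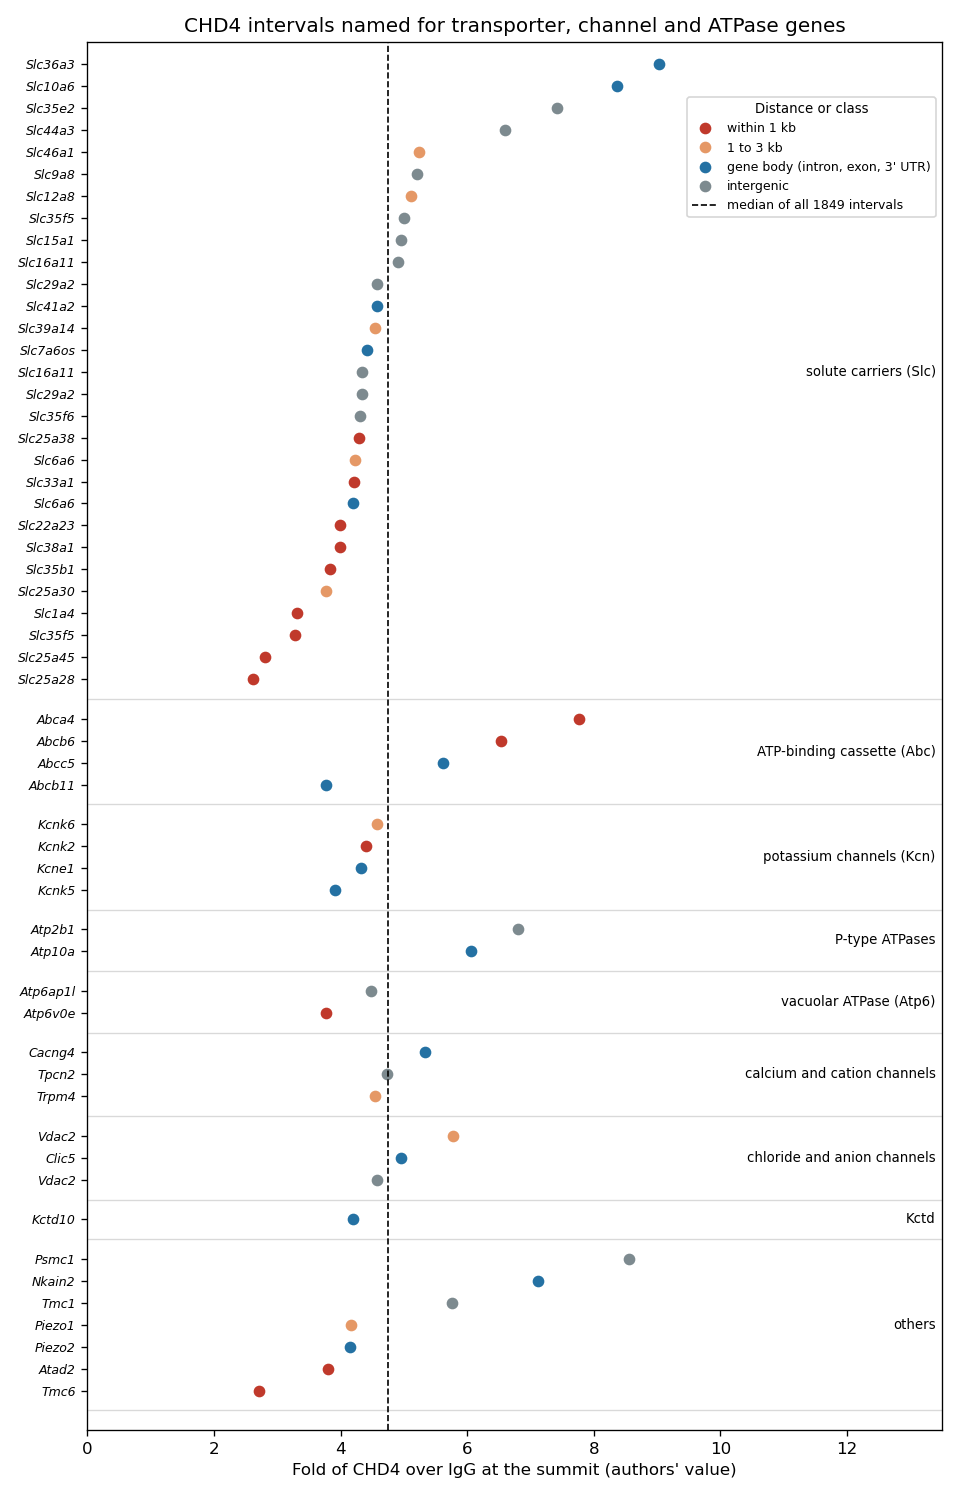
Fold of CHD4 over IgG (horizontal axis, the authors' value) for the 57 intervals, 1 point per interval, grouped by family and coloured by location, leaving out 2 that are not reported here. The dashed line is the median of all 1849 intervals, 4.76, and of the 15 red points, which lie within 1 kb of a transcript start, only those of Abca4 and Abcb6 lie to its right.

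The highest folds belonged to intervals away from promoters. Slc36a3, of the proton and amino acid symporter family, had a fold of 9.03 in intron 9 of 10 (chr11:55127966-55128408), ranked 30th of 1849. It rested on 26 CHD4 fragments (17 to 38.1) over an IgG expectation of 0.346, the lowest in the list, which is 0.806 at the CHD4 depth. That lowest value was shared by 129 of the 1849 intervals, and by 3 of the 57. Psmc1 followed with 8.56 from 25 fragments over 0.369, at an interval 36.6 kb from its start (chr12:100073003-100073536). Slc10a6, a sodium-coupled carrier of steroid sulphates, had 8.37 from 28 fragments over 0.554, at 49.2 kb (chr5:103579885-103580232). Abca4, a retinoid flippase of photoreceptors, had 7.77 from 66 fragments over 2.77 and was the strongest of the intervals within 1 kb of a start. Next came Slc35e2 with 7.42, Nkain2 with 7.11, Atp2b1, a plasma membrane calcium pump, with 6.8, and Slc44a3, a choline transporter-like protein, with 6.6. Their summits held 19 to 23 fragments over expectations from 0.346 to 0.646. Of these 8 genes, 7 had an IgG expectation below the median of 1.31 in the list, and that of Abca4 was above it. The expectation stands in the divisor of the fold by which these genes were chosen. No such count was made over other intervals of high fold, and the part of the expectation in their rank was not tested.

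By −log10 q, which weighs depth as well as fold, the order differed. Abca4 led with 13.6, followed by Slc36a3 with 9.1, Slc10a6 with 8.22, Psmc1 with 7.48 and the promoter interval of Slc35f5 with 7.32. That Slc35f5 interval had a fold of only 3.28, from 114 fragments (94 to 137) over an expectation of 14.2, which is 33.2 at the CHD4 depth. At this depth the fold takes few values, and several were equal to the last digit. Slc41a2 and the farther interval of Slc29a2 each had 4.57 from 19 fragments over 1, and Abcb11, Slc25a30 and Atp6v0e each had 3.76 from 24 over 2.

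**Figure D3:**
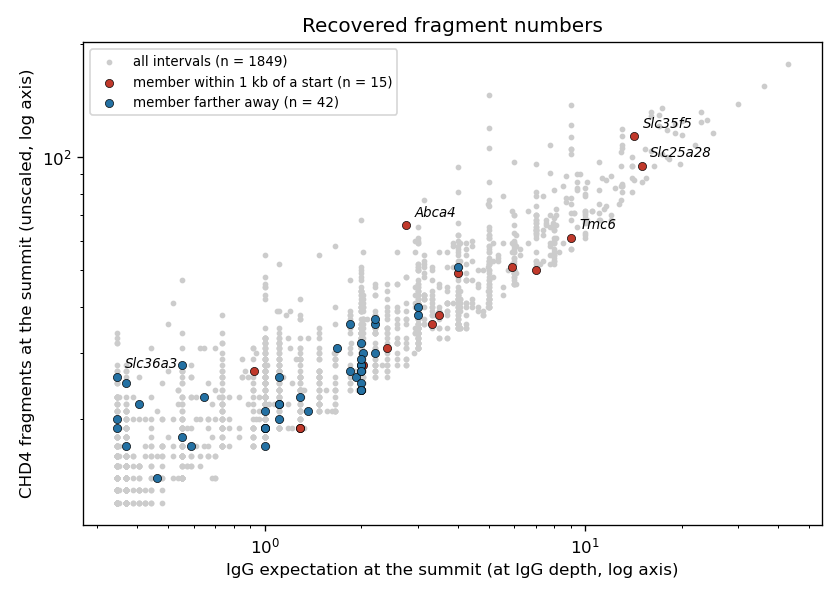
CHD4 fragments (vertical, log axis) against the IgG expectation (horizontal, log axis) at each interval's summit of highest fold, for all 1849 intervals in grey and for the transporter and channel genes in colour, with fragments unscaled and the expectation at IgG depth, so their quotient is not the fold. The intervals within 1 kb of a start reach the upper right, with Slc35f5 at 114 fragments over 14.2 and Slc25a28 at 95 over 15, while Slc36a3 sits at the left edge with 26 over 0.346.

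Intervals within 1 kb of a transcript start numbered 15 of 57, or 26.3% (15.5 to 39.7), beside 631 of 1849, or 34.1% (32 to 36.3). The start itself lay inside 5 of 57 (8.77%, 2.91 to 19.3), beside 290 of 1849 (15.7%, 14.1 to 17.4). Both shares lay below those of the list, but the list's values fell inside the intervals of the members, so a difference was not detectable with 57 intervals. Counting all of the authors' promoter classes, to 3 kb, the shares were alike at 24 of 57 (42.1%, 29.1 to 55.9) and 42.2%. The 1 to 2 kb class held 7 of the 57 (12.3%, 5.08 to 23.7) and 4.6% of all. Between 1 and 3 kb, 8 of 9 intervals lay upstream of the authors' start, while 72 of 149 did so in the list as a whole. The upstream ones were at Kcnk6, Trpm4, Piezo1, Slc46a1, Slc12a8, Vdac2, Slc39a14 and Slc25a30, and the downstream one was at Slc6a6. By the RefSeq gene bodies, however, those of Trpm4, Slc12a8 and Slc39a14 lay wholly inside the named gene. These differences in class were not tested.

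**Figure D4:**
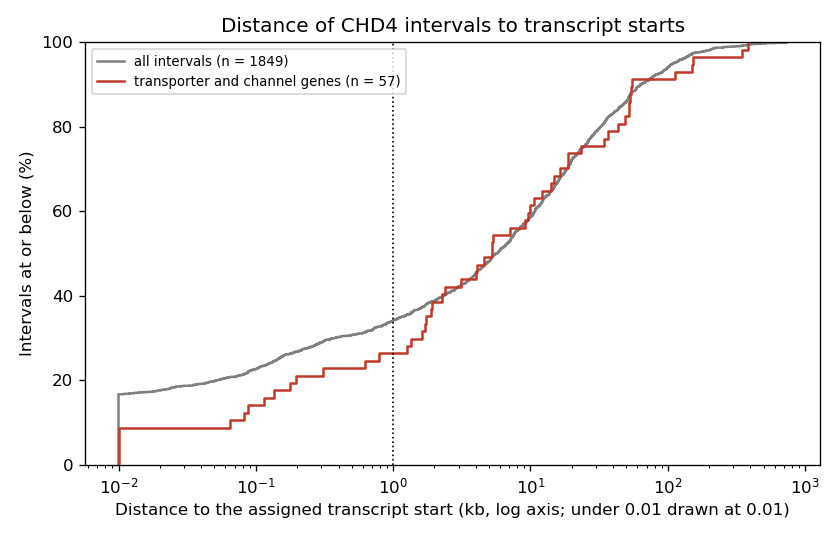
Cumulative share of intervals (vertical, percent) by distance to the assigned transcript start (horizontal, kb, log axis, with distances under 0.01 kb drawn at 0.01), for all 1849 intervals in grey and the 57 of transporter and channel genes in red. The red line runs below the grey one up to the dotted line at 1 kb, where it stands at 26.3% against 34.1%, and both stand near 42% at 3 kb.

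Among the promoter intervals, the 5 over a start had folds from 2.72 to 6.54. Abcb6, a porphyrin transporter, was the highest at 6.54, from 27 fragments over 0.923 (chr1:75179992-75180453). Slc33a1, which carries acetyl-CoA into the endoplasmic reticulum, had 4.2 from 31 over 2.4 (chr3:63964257-63964671), and this interval also overlapped Gmps, the gene of a purine synthesis enzyme. Slc35b1, a nucleotide transporter of the endoplasmic reticulum, had 3.84 from 38 over 3.51. Atad2 had 3.8 from 36 over 3.32, and Tmc6, of the transmembrane channel-like family, had 2.72 from 61 over 9.

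The other 10 promoter intervals lay beside the authors' start, 5 upstream and 5 downstream. Of the 5 upstream, those of Abca4, Kcnk2 and Slc25a45 lay wholly inside the RefSeq gene body. Of all 15, 12 lay within 0.2 kb of the start or over it. Most promoter intervals of the list did so too, with an upper quartile of 0.156 kb over all 631. The remaining 3 of the 15 were at Abca4, 0.787 kb upstream, Slc22a23, 0.623 kb downstream, and Slc38a1, a glutamine transporter, 0.306 kb downstream. Slc25a28, which brings iron into mitochondria, had a fold of 2.61, the lowest of the 57, yet 95 fragments (76.9 to 116) over an expectation of 15. Its interval lay 0.135 kb upstream and reached into BC037704, a gene for a long non-coding RNA with a RefSeq start within 1 kb of the interval. Slc25a38, the mitochondrial glycine carrier of haem synthesis, had 4.29 from 28 over 2.03, and Slc25a45 had 2.8 from 50 over 7. Slc1a4, a neutral amino acid transporter, had 2 summits, with folds of 3.31 and 3.17 from 51 and 57 fragments. Kcnk2, a leak potassium channel, had 4.4 from 49 over 4, and Atp6v0e, a membrane subunit of the vacuolar ATPase, had 3.76 from 24 over 2.

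The 15 promoter intervals had a median fold of 3.84 (3.28 to 4.29), and all 631 promoter intervals had 4.32 (4.18 to 4.42). Their median fragment number was 38 (27 to 61) against 34, and their median IgG expectation 3.32 (2 to 7) against 2.4. At or above the median fold of the list were 2 of the 15 (13.3%), Abca4 and Abcb6, beside 217 of 631 (34.4%). The 42 intervals beyond 1 kb had a median fold of 4.66 (4.54 to 5.11), against 4.98 in the 1218 of the list. The median expectation of all promoter intervals, 2.4, lay inside the interval of the 15, so a higher expectation was not detectable. The fold has the expectation in its divisor, so the values are linked by their formula. The part of the expectation in the fold was not tested.

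The median distance to the assigned start was 5.22 kb (1.88 to 12.1) for the 57 intervals and 5.63 kb (4.79 to 6.75) for all. Beyond 10 kb lay 22 of 57 (38.6%, 26 to 52.4) and 41.3% of all, and beyond 100 kb 5 of 57 (8.77%, 2.91 to 19.3) and 5.89%. The farthest was that of Atp6ap1l, an accessory-like protein of the vacuolar ATPase, at 385 kb. Its interval (chr13:90514060-90514271) had a fold of 4.48 and lay over the long non-coding RNA gene Gm35111. The Nkain2 interval, 346 kb from the start it was assigned to, lay inside the gene, in intron 3 of 6. The Slc41a2 interval, at 152 kb, lay in Chst11, a chondroitin sulphotransferase gene. That of Tmc1, a component of hair cell mechanotransduction, at 150 kb, lay over 4930554I06Rik. A RefSeq start of 4930554I06Rik was within 1 kb of it, so this interval was far only from the start it was assigned to.

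Being named for a gene did not always mean lying in it. By the RefSeq gene bodies, 30 of the 57 intervals overlapped the gene they were named for (52.6%, 39 to 66), beside 54.4% of all. The other 27 lay outside, and for 21 of these the named gene was still the nearest protein-coding gene. At the remaining 6 another gene was closer. Slc10a6, Slc41a2 and Slc7a6os were each named for an interval inside another gene: Ptpn13, a phosphatase, Chst11 and Slc7a6. The Psmc1 interval lay 10.3 kb from Kcnk13, a potassium channel gene, and 36.7 kb from Psmc1. The Slc35e2 interval lay 4.82 kb from Nadk, a kinase that makes NADP, and 5.35 kb from Slc35e2. Of the 5 highest folds, 3 were thus at intervals whose named gene was not the nearest. The nearest gene was not counted over the whole list, so these counts have no background share.

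The authors' starts and the RefSeq gene bodies also differed at some genes. An interval assigned to Slc29a2, a nucleoside transporter, at 5.27 kb lay 0.325 kb from the RefSeq gene. That of Vdac2, assigned at 1.93 kb, lay 8.25 kb from it. Introns held 13 of the 57 intervals (22.8%, 12.7 to 35.8), against 26.7% of all. Of these 13, 10 lay in the named gene, beside 370 of 493 in the list. Intron 1 held 6 of the 13, beside 167 of 493 in the list. These were at Atp10a, a lipid flippase, with a fold of 6.05, at Cacng4, a regulatory subunit of calcium channels and glutamate receptors, with 5.33, at Clic5 with 4.95, at Kcne1 with 4.32, at Slc6a6 with 4.19 and at Kcnk5 with 3.91. Distal intergenic sequence held 16 of 57 (28.1%, 17 to 41.5) against 24.7%, at a median of 35.5 kb from the assigned start. No interval of these genes overlapped a small RNA gene (0 of 57, up to 6.27%), beside 53 of 1849 in the list.

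A second interval was found at 5 of the 52 genes. Genes with more than 1 interval were not counted over the whole list, which held 1849 intervals at 1517 genes, so this count has no background share. At Vdac2, a porin of the outer mitochondrial membrane, the folds were 5.77 at 1.93 kb and 4.57 at 4 kb upstream, and the intervals lay 1.69 kb apart. At Slc6a6, the taurine transporter, folds of 4.23 and 4.19 lay 1.73 and 5.22 kb inside the gene. At Slc29a2 they were 4.33 and 4.57, at 5.27 and 10.5 kb upstream. At Slc16a11, of the monocarboxylate transporter family, folds of 4.91 and 4.33 lay 14.1 and 18.7 kb upstream, with an interval named for Clec10a 3.74 kb from the farther one. At Slc35f5 the promoter interval had 3.28 and the other, 52.3 kb upstream, had 5 from 21 fragments over 1. The fold was thus higher at the distal than at the promoter interval of Slc35f5, with fewer fragments. Within 10 kb of another interval of any gene lay 10 of the 57 (17.5%, 8.75 to 29.9), beside 18.6% of all. Besides the pairs of Vdac2, Slc6a6, Slc29a2 and Slc16a11 they were at Kcnk6, 4.08 kb from an interval of Yif1b, and at Slc9a8, 2.96 kb from one of B4galt5.

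Several summits in 1 interval were seen at 4 of 57 (7.02%, 1.94 to 17), beside 9.84% of all. The Abca4 interval (chr3:122130582-122131215) had a summit of fold 7.77 from 66 fragments over 2.77 and a weaker one of 3.91 from 27 over 2.21. Gm40138, another gene for a long non-coding RNA, also lay there. At Tmc1 the folds were 5.76 and 4.19, and at Slc15a1, the peptide transporter of the gut, 4.95 and 3.99. The members lay on 19 chromosomes and on neither X nor Y, which held 20 intervals of the list. Chromosome 11 held the most, 8 of 57 (14%), beside 7.36% of all.

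Among the ATP-driven pumps, the Atp2b1 interval lay 43.6 kb from its assigned start and 36.5 kb outside the gene (chr10:99062672-99062993), with 19 fragments (11.4 to 29.7) over 0.346. All 4 intervals of the ATP-binding cassette genes among the 52 overlapped their gene, beside 1005 of all 1849 intervals. Abcc5, an organic anion exporter, had 5.61 in intron 17 of 29, and Abcb11, the bile salt export pump, had 3.76 in exon 12 of 28. The potassium channels had folds in a narrow range, from 3.91 to 4.57, with 25 to 51 fragments, and the lowest and highest were those of the leak channels Kcnk5 and Kcnk6. Trpm4, a calcium-activated cation channel, had 4.54 from 20 fragments, and Tpcn2, a cation channel of lysosomes, 4.74 at 112 kb. The mechanosensitive channels Piezo1 and Piezo2 had 4.16, at 1.62 kb upstream, and 4.14, in intron 4.

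Slc46a1, the proton-coupled folate transporter, had 5.24 from 37 fragments over 2.21, at 1.7 kb upstream. Slc35f6 had 4.31 from 30 fragments at 4.1 kb upstream, and Slc22a23, a relative of the organic ion transporters, had 3.99 from 19. The intervals of Kctd10 and Slc7a6os were the only 2 of the 57 that the authors placed in a 3′ UTR, with 4.19 and 4.42 from 27 fragments each. In the list 14 of 1849 were placed there (0.757%), against 3.51% of the members (0.428 to 12.1).

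Of 7 lists of transport genes, 169 genes in all, 12 had an interval (7.1%, 3.72 to 12.1), beside 6.1% of all protein-coding genes. No gene of sperm ion transport was named (0 of 20, up to 16.8%), a list that holds the CatSper channel subunits and the sperm sodium pump Atp1a4. None of glucose and lactate transport was named either (0 of 15, up to 21.8%). The latter list leaves out Slc16a11, of the monocarboxylate transporter family, which had 2 intervals. Amino acid transport had 2 of 25, Slc1a4 and Slc38a1, both at the promoter, and Slc38a1 rested on 19 fragments over 1.29 with a fold of 3.99. Slc36a3, of the proton and amino acid symporter family, whose intronic interval had a fold of 9.03, was not on this list. Calcium handling had 3 of 27: Atp2b1, the inositol trisphosphate receptor Itpr1 and the mitochondrial uniporter Mcu. Itpr1 and Mcu are not among the 52 genes. Itpr1 had a promoter interval of fold 6.05 from 17 fragments over 0.369, and Mcu had 2 intronic ones, of 4.57 at 78.8 kb from 12 fragments and of 5 at 38 kb from 21. Of the metal transporters 2 of 34 were named, Slc39a14, an importer of zinc, iron and manganese, and Slc41a2, a magnesium transporter. The Slc39a14 interval had 4.54 from 40 fragments over 3, at 2.27 kb upstream of the authors' start and inside the RefSeq gene. Volume and pH control had 4 of 35, in a list that took some families whole by symbol. Among them were the sodium-hydrogen exchanger Slc9a8 with 5.21 at 34.5 kb and Slc12a8 with 5.11 at 1.88 kb. Slc12a8 was listed for its family, and its own role was not checked. The others were the volume-regulated anion channel subunits Lrrc8c and Lrrc8d, with 5.04 for Lrrc8c and 4.8 and 5.22 for Lrrc8d. With lists this short, an absence is not distinguishable from the background share.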

How the data were processed

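The submitters' processing notes name mm10 as the build, MACS2 (2.1.2) as well as Bowtie2 (2.2.5), and Trim Galore in version 0.5.0. The sources used here do not state how replicates were combined. The deposited list gives, per the file headers, a fold (a ratio of CHD4 to IgG at the summit) and its log2, with −log10 p, −log10 q and a score of 10 times −log10 q in the deposited columns whose headers were lost. Coordinates count from 1, and the largest q was 0.049. Rows that share an interval were merged and took the summit of highest fold. The peak whose values stand in the header line was not analysed.

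Genes, distances and classes are the authors' annotation by nearest transcript start. Gene bodies came from the RefSeq table of GRCm38.p6 by gene identifier (52 of 52 matched), leaving out genes that start before 3 Mb on chromosomes other than Y. That table holds no full names, so families were counted by symbol. CHD4 fragments and IgG expectation were solved from fold and −log10 p with a Poisson model: a scale of 0.429, the largest that did so, gave 1 solution at all 2066 summits within 0.0005. The model multiplies the CHD4 fragments by this scale to bring them to the IgG depth, then adds 1 to both sides of the fold. Smaller scales that divide this one also solve the summits, so the fragment numbers are the fewest the values allow. The procedure was tested on simulated data. Shares, medians and fragment numbers have exact 95% binomial, order-statistic and Poisson intervals, and no test between groups was run. Python 3.11.15, pandas 2.3.3 and scipy 1.17.1 were used.

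The genes named were the 8 highest folds, the 5 highest −log10 q, intervals over a start, genes with 2 intervals, the extremes of each family with 3 or more intervals, the 3 farthest and the genes of the 7 lists. Others named to describe a class, a second gene or a family were chosen after their values were seen. The values of 2 genes, and of the list that 1 of them makes up, are not reported here, though counts and medians include them. Members and lists were chosen with earlier results of these data known.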

Additional observations from a re-analysis of the deposited data

How the results depend on the processing

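The number of intervals, their shares, median fold, median distance and median depth were recomputed with summits as the unit, with q below 0.01, with other name rules and with 1 interval per gene, where each applied. Of 36 alternatives, 32 stayed within the interval of the value reported or, for the count, within 1.5 times of it. The 4 others were as follows. At or above the median fold of the list there were 22 intervals in place of 57, and 9.09% of these lay within 1 kb of a start in place of 26.3%, beside 23.3% of the 930 in the list. Promoter classes to 3 kb gave 42.1%. Counting only intervals within 1 kb gave 2.02% of family genes named in place of 6.87%. The 22, the 42.1% and the 2.02% follow from a narrower or wider definition. For the 9.09% the cause was not tested. Leaving out Atad2, Kctd10 and Nkain2 gave 54 intervals, leaving out Psmc1 and Slc7a6os as well gave 52, and adding family genes by symbol gave 64; the last 2 settings, and the alternatives for depth, were chosen after seeing the data. No paired analysis was possible because the list holds no value for any single sample, and for the same reason no replicate could be left out. Depth limits single intervals: fewer than 20 fragments supported 11 of the 57.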

Other observations

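Family genes whose full names escape the wording of the rule had 7 intervals at 6 genes. Best3, a bestrophin of the calcium-activated chloride channels, had a fold of 7.14 in an intron 9.56 kb from its start, where 81 fragments stood over an expectation of 4 at IgG depth, or 9.33 at the CHD4 depth. Only the promoter interval of Slc35f5 (114 fragments) and that of Slc25a28 (95) had more fragments among the 57 intervals of the report, at folds of 3.28 and 2.61. Abcg1, a sterol exporter, had 4.73 in an intron at 16.3 kb from 15 fragments over 0.572. Atp5d, a subunit of ATP synthase, had an interval over its start with 4.08 from 30 over 2.4. These genes were named after their values were seen.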
